A study of Mus musculus with 2 samples.

Results

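The genes described here encode the proteins of the mitochondrial ribosome, and they were taken from the mm10 RefSeq annotation as the protein-coding genes whose symbol begins with Mrpl or Mrps followed by a number. This rule found 78 of the 21887 protein-coding genes on the nuclear chromosomes, 49 with an Mrpl symbol and 29 with an Mrps symbol. The measurement was a chromatin immunoprecipitation followed by sequencing (ChIP-seq), which reads out where on the DNA a given protein sits, in a T-cell lymphoma of Lck-Dlx5 mice. In these mice the Lck promoter, which is active in thymocytes, drives a Dlx5 transgene, and the homeobox protein it encodes carries a Myc-Tag that the antibody captured. There were 2 libraries without replicates, 1 Myc-Tag ChIP (strain label C57BL/6) and 1 input (strain label C57BL/7), both labelled as primary tumor, whereas the methods name an Lck-Dlx5 lymphoma cell line, F85-786, and an IgG control. Both libraries are of Lck-Dlx5 lymphoma, so that no group without the transgene was compared, and the age and sex of the animal are not given in the sources used here. A ChIP-seq peak list holds no transcript levels, so that the T-cell markers of the lymphoma were not checked.

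The mitochondrial ribosome translates the few messenger RNAs of the mitochondrial genome, which encode core subunits of the respiratory chain and of the ATP synthase. Its RNAs come from mitochondrial DNA, but all of its proteins are encoded in the nucleus, translated in the cytosol and imported. The large subunit, with the Mrpl proteins, holds the peptidyl transferase centre and the exit tunnel, and the small subunit, with the Mrps proteins, decodes the messenger RNA. Some of these proteins descend from those of the bacterial ribosome and others are specific to mitochondria. Despite their symbols, Mrps18a and Mrps30 sit in the large subunit, and Mrps36 is described as a component of the 2-oxoglutarate dehydrogenase complex rather than of the ribosome.

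The summit of a Myc-Tag interval is the position of its highest signal. A gene is said here to have a summit if one lay no more than 1 kb from either outer end of the annotated gene. An annotated transcription start inside the gene was not used for this count. The height of a summit is a whole-number score whose normalization is not stated, and the read depth behind it is unknown. The library held 3477 intervals, with a median height of 16 and an interquartile range of 13 to 19. Of these, 2030 (58.4%) had their summit within 1 kb of a coding gene end. The input library held 28 intervals, each of them identical in position to a Myc-Tag interval, and how these were called is not stated. None of their summits lay that close to a mitochondrial ribosomal protein gene.

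Of the 78 mitochondrial ribosomal protein genes, 29 (37.2%, 95% Wilson interval 27.3 to 48.3%) had a Myc-Tag summit at this distance. By the same rule, 2354 of all 21887 protein-coding genes (10.8%) had one. The 29 genes were served by 29 intervals, since Mrpl46 and Mrps11 shared a single interval and Mrpl58 had 1 at each end. Among the 49 Mrpl genes 17 (34.7%, 22.9 to 48.7%) had a summit, and among the 29 Mrps genes 12 (41.4%, 25.5 to 59.3%). The Wilson intervals of the Mrpl and Mrps shares overlapped, and they treat genes as independent draws and cover counting error only. Of the genes classed here as having a bacterial counterpart, 13 of 44 (29.5%, 18.2 to 44.2%) had a summit. Of those classed as mitochondria-specific, 15 of 31 (48.4%, 32.0 to 65.2%) had one, and these intervals also overlapped. Mrpl47, which had a summit, was counted as mitochondria-specific although its protein has a bacterial homolog, so that the gap between these shares is overstated. As there was 1 library, no test between conditions was possible, and the differences between these groups of genes were not tested.

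**Figure D1:**
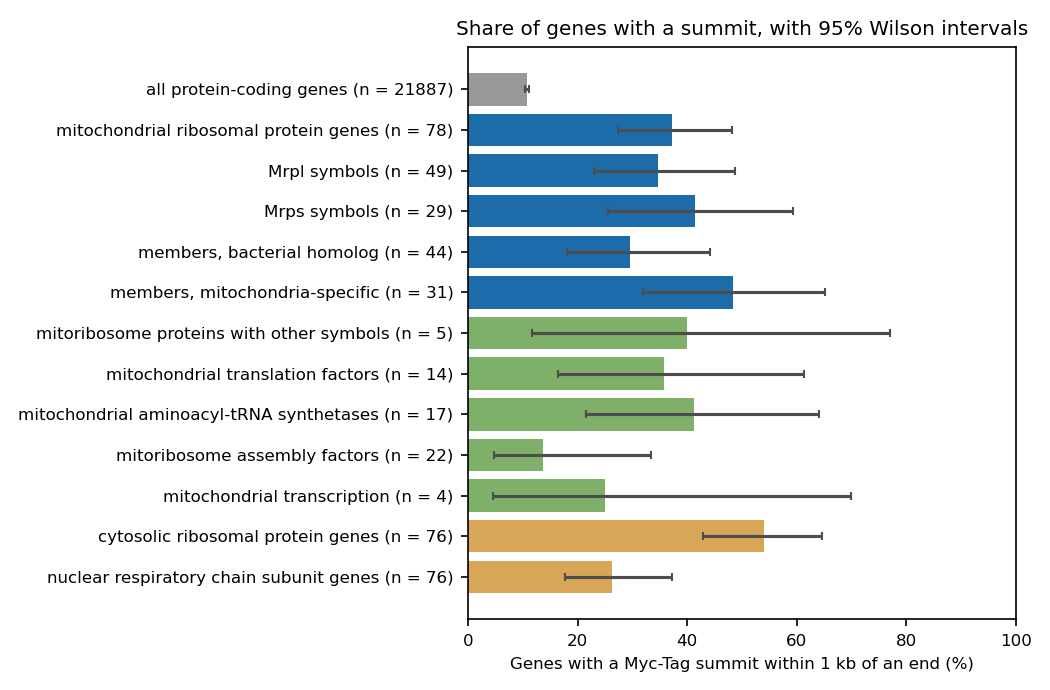
Bars show the percentage of genes with a Myc-Tag summit within 1 kb of an end, with n the number of genes in each list and error bars giving 95% Wilson intervals for counting error. The 78 mitochondrial ribosomal protein genes stand at 37.2%, all protein-coding genes at 10.8% and the cytosolic ribosomal protein genes at 53.9%.

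The tallest summits illustrate the forms that these promoters take, and their sequences are shown for this reason. The bases are those directly before the annotated start in GRCm38.p6 (the coordinates of mm10), read 5′ to 3′ on the strand of the gene, and capitals mark matches to the motifs searched. The summit lies within the printed stretch for Mrpl35, Mrpl28 and Mrps5. For Mrps22, Mrps36, Mrpl41 and Mrps11 it lies outside, so that their marked motifs are not at the summit. Mrpl35, Mrps22 and Mrps36 are the tallest genes with no second coding gene end near the summit for which at least 100 bases before the start lie in no annotated gene. Mrpl28, Mrps5 and Mrpl41 are those that share their interval with a neighbour, and the stretch before Mrps11 is the whole gap between it and Mrpl46. Of the genes as tall or taller, Mrpl21, Mrpl1, Mrps31, Mrpl2, Mrpl44, Mrps7, Mrps27, Mrpl58, Mrpl48 and Mrpl53 are not shown. The bases before their start lie inside an annotated gene. Mrpl47 had the same height as Mrpl41, at 16, and is not shown either. For Mrpl13, also at 16, no start was available. Mrps18c is not shown because 97 free bases fall under the minimum, and Mrps21 because its summit is not at the start.
Mrpl35 (chr6:71823785-71824034, minus strand): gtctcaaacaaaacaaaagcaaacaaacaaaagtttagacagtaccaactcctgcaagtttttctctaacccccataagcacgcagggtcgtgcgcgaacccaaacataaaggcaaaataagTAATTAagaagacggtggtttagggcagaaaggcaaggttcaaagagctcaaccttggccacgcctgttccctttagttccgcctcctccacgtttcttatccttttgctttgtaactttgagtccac
Mrps22 (chr9:98601680-98601929, minus strand): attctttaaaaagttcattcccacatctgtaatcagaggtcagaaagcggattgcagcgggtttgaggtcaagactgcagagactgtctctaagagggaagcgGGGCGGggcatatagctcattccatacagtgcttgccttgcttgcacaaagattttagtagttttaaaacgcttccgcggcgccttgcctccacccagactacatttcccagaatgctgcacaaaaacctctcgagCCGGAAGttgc
Mrps36 (chr13:100744660-100744909, minus strand): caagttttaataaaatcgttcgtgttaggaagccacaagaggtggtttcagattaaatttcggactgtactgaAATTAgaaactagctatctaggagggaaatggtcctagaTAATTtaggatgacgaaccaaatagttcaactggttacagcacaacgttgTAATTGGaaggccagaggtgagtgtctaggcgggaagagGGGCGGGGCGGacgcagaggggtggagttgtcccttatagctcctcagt
Mrpl28 (chr17:26123255-26123502, plus strand): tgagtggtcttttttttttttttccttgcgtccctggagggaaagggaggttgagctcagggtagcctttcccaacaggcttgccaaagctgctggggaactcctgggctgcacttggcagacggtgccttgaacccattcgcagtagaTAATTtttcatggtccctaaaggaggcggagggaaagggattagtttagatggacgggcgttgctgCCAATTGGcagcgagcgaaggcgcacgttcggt
Mrps5 (chr2:127587176-127587425, plus strand): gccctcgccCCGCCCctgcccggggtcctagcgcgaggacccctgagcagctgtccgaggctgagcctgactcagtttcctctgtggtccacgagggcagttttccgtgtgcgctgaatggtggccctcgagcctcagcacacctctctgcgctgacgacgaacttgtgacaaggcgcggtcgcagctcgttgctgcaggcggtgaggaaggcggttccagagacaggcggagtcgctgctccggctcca
Mrpl41 (chr2:24975099-24975348, minus strand): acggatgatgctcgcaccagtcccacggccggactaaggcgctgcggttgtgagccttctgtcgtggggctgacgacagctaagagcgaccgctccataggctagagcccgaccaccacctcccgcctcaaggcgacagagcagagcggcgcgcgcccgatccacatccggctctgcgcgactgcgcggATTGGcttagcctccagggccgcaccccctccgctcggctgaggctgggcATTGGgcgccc
Mrps11 (chr7:78783090-78783130, plus strand): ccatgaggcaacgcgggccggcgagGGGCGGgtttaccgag
In Mrpl35, TAATT begins 128 bases before the start and overlaps a match on the other strand, so that the letters read TAATTA. Mrps36 holds TAATT at 138 and 88 bases before the start and its reverse complement at 177, together with overlapping GC boxes (GGGCGG) at 49 and 44 and a reversed CCAAT box at 86. Mrpl28 holds TAATT at 99 bases and CCAAT and its reverse complement, which overlap, at 33 and 30 bases. The other stretches have no TAATT. They hold a GC box and an Ets motif (CCGGAAG) in Mrps22, a GC box in Mrps5 and in the gap before Mrps11, and 2 reversed CCAAT boxes in Mrpl41.

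Summit heights at the mitochondrial ribosomal protein genes ranged from 12 to 47, with a median of 19 (interquartile range 16 to 24). The median over all Myc-Tag intervals at coding gene ends was 16. Of the 29 intervals, 22 reached the median height of the whole library and 15 reached its upper quartile of 19. Counted by gene, 22 of the 78 (28.2%) had a summit of at least 16, against 5.68% of all coding genes, and 15 (19.2%) had one of at least 19, against 3.08%. With a single library these heights have no replicate check, so that neighbours in the order of heights cannot be told apart. The width of the intervals ran from 348 to 1590 bp (median 774 bp). Height and width were nearly unrelated across these 29 intervals (Spearman's rho = 0.04), while rho was 0.29 over the 2030 intervals at all coding gene ends. The difference was not tested.

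**Figure D2:**
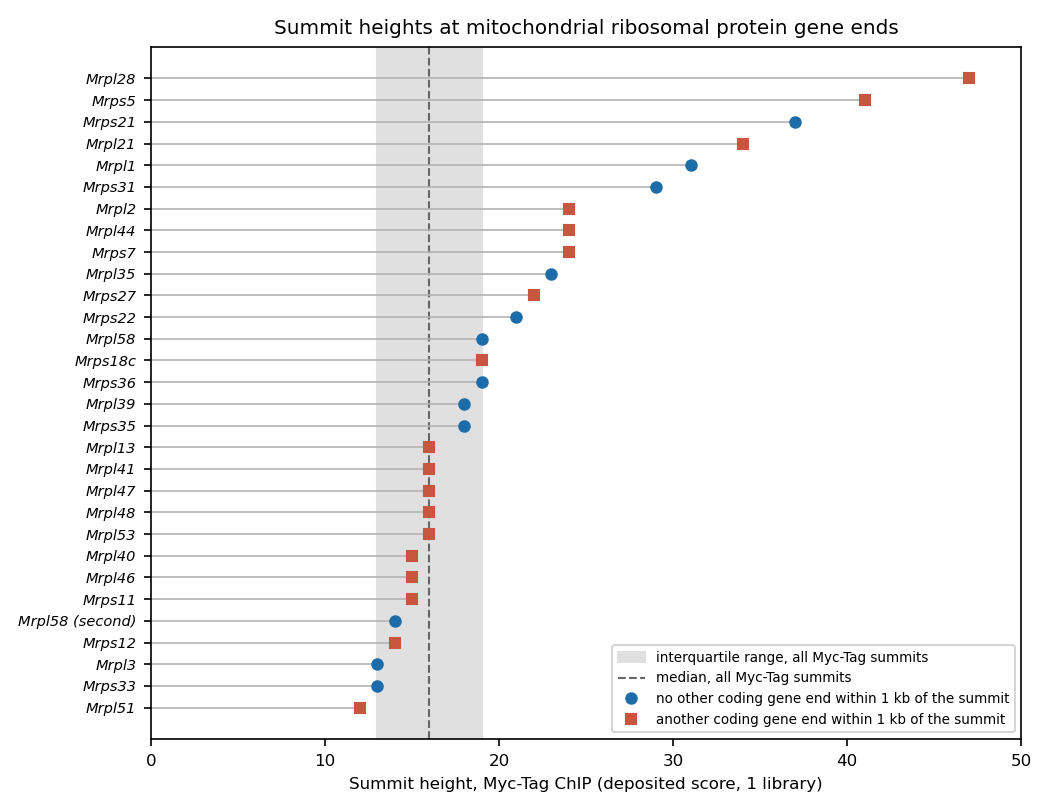
Each point is 1 gene and summit, with the deposited summit height of the Myc-Tag ChIP (a score, 1 library) on the x axis. The summits run from 12 at Mrpl51 to 47 at Mrpl28, and those from Mrps22 (21) upward lie above the grey interquartile range of all Myc-Tag summits (13 to 19); Mrpl46 and Mrps11 are plotted separately for their common summit.

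Among the large subunit genes, the tallest summit was at Mrpl28, a homolog of bacterial protein L28. Its interval lay on chromosome 17 from 26123017 to 26123910 with a height of 47, and 36 of the 3477 Myc-Tag summits (1.04%) were taller. The summit at 26123424 was 79 bp before the start of Mrpl28 and 170 bp from the end of the upstream gene Pgap6, which is on the same strand. Mrpl21, another protein with a bacterial homolog, had a height of 34 in an interval from 3282564 to 3283382 of chromosome 19. Its summit was 66 bp before the annotated start of Mrpl21 and 34 bp from the outer end of Ighmbp2 at its start, a helicase gene on the opposite strand. At Mrpl1, which forms the mobile L1 stalk of the ribosome, the interval from 96209878 to 96210468 of chromosome 5 had a height of 31. That summit was 35 bp before the transcription start and 582 bp inside the outer end of the annotated gene.

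Mrpl2 and Mrpl44 both had a height of 24. Mrpl2 lies close to the peptidyl transferase centre, and its interval on chromosome 17 from 46645896 to 46646641 had its summit 3 bp after an annotated start and 51 bp from the outer end of Klc4 at its start, a kinesin light chain gene. Mrpl44 is a mitochondria-specific protein related to ribonuclease III. Its interval, on chromosome 1 from 79775846 to 79776522, had its summit 46 bp after the start and 79 bp from an end of Wdfy1. Mrpl35 followed with a height of 23 on chromosome 6 from 71823412 to 71824053, and its summit was 24 bp before the start, within the first of the sequences above. The TAATT of that sequence begins 128 bases before the start and thus lies farther upstream than the summit.

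The lower summits of the large subunit were at Mrpl58 (19), Mrpl39 (18), Mrpl13, Mrpl41, Mrpl47, Mrpl48 and Mrpl53 (16 each), Mrpl40 and Mrpl46 (15 each), Mrpl3 (13) and Mrpl51 (12). Mrpl58 is a peptidyl-tRNA hydrolase built into the large subunit. It had a second interval with a height of 14, whose summit was 670 bp from the other end of the gene and within 1 kb of the tRNA genes n-TRcct3, n-TRcct5 and n-TRtcg4. Mrpl13 was the 1 member on chromosome 15, and its interval from 55557103 to 55558080 was called there at a height of 16. The study reports an extra copy of this chromosome as the only recurring karyotypic abnormality in lymphomas with the transgene. On chromosome 15, 21.3% of all protein-coding genes had a summit, above the 14.2% of chromosome 13, the next highest. Its karyotype list gives the extra chromosome 15 as the only change in a line that shares the animal number of the ChIP line under another founder number. Whether that is the sequenced line is not stated. Copy number in the sequenced cells was not examined here, and its effect on these calls was not tested. Without chromosome 15, 28 of 77 mitochondrial ribosomal protein genes (36.4%) had a summit, against 10.4% of coding genes.

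In the small subunit, the tallest summit was at Mrps5, which lines the entry of the messenger RNA. The interval spanned 127587035 to 127587859 of chromosome 2 with a height of 41, and its summit was 98 bp before the start of Mrps5 and 234 bp from the outer end, at the start, of the zinc finger gene Zfp661. Mrps21 had a height of 37 in an interval from 95861769 to 95862338 of chromosome 3. This summit was not at the start of Mrps21 but 586 bp beyond the opposite end of the gene, 9466 bp from the annotated start, and no other gene end of the RefSeq table was within 1 kb. At Mrps31 the interval on chromosome 8 from 22410979 to 22411723 had a height of 29, and its summit was 12 bp before the transcription start and 879 bp inside the outer end of the annotated gene. Mrps7, a protein of the head of the small subunit, had a height of 24 on chromosome 11 from 115603269 to 115604465, with its summit 108 bp before the start.

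The other small subunit summits were at Mrps27 (22), Mrps22 (21), Mrps18c (19), Mrps35 (18), Mrps11 (15), Mrps12 (14) and Mrps33 (13). Mrps12, a homolog of the bacterial decoding-site protein S12, was thus among the lower ones. Mrps36 had a height of 19 and a summit 243 bp after its start. By place in the ribosome, summits were found at Mrpl2 and Mrpl3 but not at Mrpl16 and Mrpl27 among 4 genes for proteins near the peptidyl transferase centre. For the stalk that recruits translation factors, 0 of the 3 genes Mrpl10, Mrpl11 and Mrpl12 had a summit within 1 kb. Among proteins of the peptide tunnel and its exit, 5 genes were listed, namely Mrpl4, Mrpl22, Mrpl23, Mrpl24 and Mrpl45, and 0 of these had one. This list is not complete, as Mrpl47, which had a summit of height 16, also encodes a protein at the tunnel exit. Of 3 genes for the entry and decoding of messenger RNA, Mrps5 and Mrps12 had one and Mrps24 did not. These counts stand beside 37.2% of all 78 mitochondrial ribosomal protein genes and 10.8% of all coding genes. The groups hold 3 to 5 genes each, so that a count of 0 was not read as a difference. Whether they differ was not tested.

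Most summits lay at the start of the gene. For 27 of the 29 genes the RefSeq promoter table gave a start and a strand, and these made 28 pairs of a gene and a summit. Within 500 bp of either end there were 25 genes with a summit (32.1%), against 9.04% of all coding genes. In 26 of the 28 pairs (92.9%) the summit was within 1 kb of an annotated start, and the exceptions were Mrps21 and the second interval of Mrpl58. Over all coding genes with a summit and a start this held for 1792 of 1977 pairs (90.6%), a share near that of the members. Within 300 bp there were 25 of 28 (89.3%), against 1319 of 1977 pairs (66.7%) over all coding genes with a summit and a start. The median distance from the start was 103 bp for the mitochondrial ribosomal protein genes and 178 bp for all coding genes. Summits lay before the start in 19 pairs and after it in 9, of which 2 were the far-end summits of Mrps21 and Mrpl58. Over all coding genes 958 pairs were before the start and 1016 after it, and the difference in balance was not tested. Of all 3477 summits, 3329 were on a multiple of 16 bp, so that a distance is exact to this grid rather than to the base.

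Among these genes the taller summits had the smaller median distance from the start. The 14 summits near a start that reached a height of 19 were between 3 and 243 bp from it, with a median of 72.5 bp. The 12 lower ones were between 8 and 462 bp away, with a median of 182 bp. Over all coding genes the medians were 114 bp for 505 pairs at that height and 175 bp for 1287 lower pairs. The order was thus the same among the members as among all genes, and no test of it was made.

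**Figure D3:**
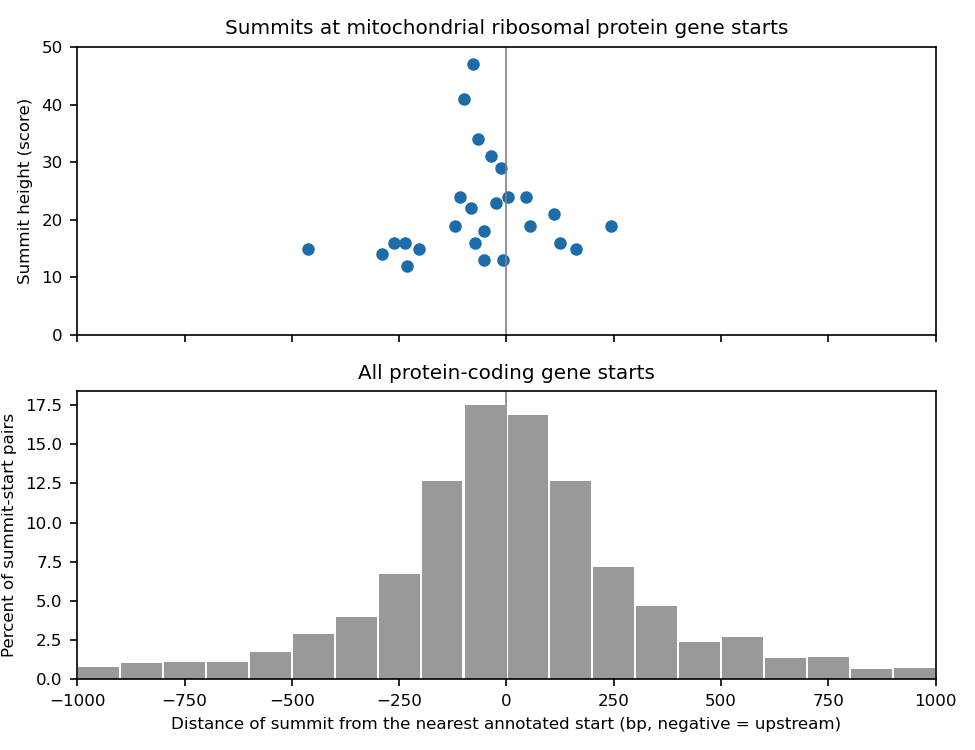
The upper panel plots the height of each summit within 1 kb of an annotated start of a mitochondrial ribosomal protein gene against its distance in bp (negative is upstream), and the lower panel gives the distances over all protein-coding gene starts as a percentage per 100 bp. The 26 points lie between 462 bp upstream and 243 bp downstream, and the tallest (47) is 79 bp upstream.

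Many of these promoters are shared. For 18 of the 29 genes (62.1%, 95% Wilson interval 44.0 to 77.3%) the summit also lay within 1 kb of an end of another protein-coding gene, so that these intervals cannot be assigned to 1 gene. Among all 2354 coding genes with a summit, 790 (33.6%, 31.7 to 35.5%) shared it in this way. Distances to a neighbour are to the outer end of its gene model, which can differ from a transcription start. In 13 of the 18 the starts of both genes were divergent, with the genes transcribed away from each other. Pgap6 has its finish rather than its start near the summit of Mrpl28. Rab6a, a small GTPase gene of Golgi traffic, and Mrpl48 are on opposite strands with overlapping 5′ parts. For the pairs Mrpl44 with Wdfy1, Mrpl13 with Mtbp and Mrpl53 with Ccdc142, the strand of a gene was not used here.

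Some neighbours encode mitochondrial proteins. Mrpl46 and Mrps11, 1 from each subunit, lie back to back on chromosome 7, and their common summit at 78782928 had a height of 15. It was 161 bp inside Mrpl46 and 203 bp from the start of Mrps11. Mrps12 shared its interval (height 14) with Sars2, the mitochondrial seryl-tRNA synthetase gene, and the summit was 291 bp from Mrps12 and 155 bp from Sars2. Mrpl47 shared a height of 16 with Ndufb5, a gene for a subunit of respiratory complex I, at 237 and 65 bp. Mrps27 shared a height of 22 with Ptcd2, which encodes a mitochondrial RNA-binding protein, at 63 and 26 bp.

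The other neighbours were Gga3 at Mrps7, Helq at Mrps18c, Pnpla7 at Mrpl41, Hira at Mrpl40 and Ncapd2 at Mrpl51, besides Zfp661, Ighmbp2, Klc4, Wdfy1, Mtbp, Rab6a, Ccdc142 and Pgap6. Hira encodes a histone chaperone and Ncapd2 a condensin subunit. The median height was 16 for the 17 intervals near another coding end and 19 for the 12 that were not, and both groups spanned most of the range, at 12 to 47 and 13 to 37.

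The share with a summit was also taken separately for genes with and without a close neighbour. By annotation, without regard to peaks, 44 of the 78 genes (56.4%) had another coding gene end within 1 kb, against 24.8% of all coding genes. Of these 44, 19 (43.2%, 29.7 to 57.8%) had a summit, against 1048 of 5426 (19.3%) of all coding genes with such a neighbour. Of the 34 without such a neighbour, 10 (29.4%, 16.8 to 46.2%) had a summit, against 1306 of 16461 (7.93%) of all coding genes. Of the 69 members with a start, 24 (34.8%) had a divergent coding start within 1 kb, against 8.48% of all coding genes with a start. Of these 24, 13 (54.2%) had a summit, against 27.1% of all coding genes of this kind. Without a divergent start it was 14 of 45 (31.1%), against 9.36%. The Wilson intervals treat genes as independent draws, although some members share an interval, and differences from all coding genes were not tested.

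**Figure D4:**
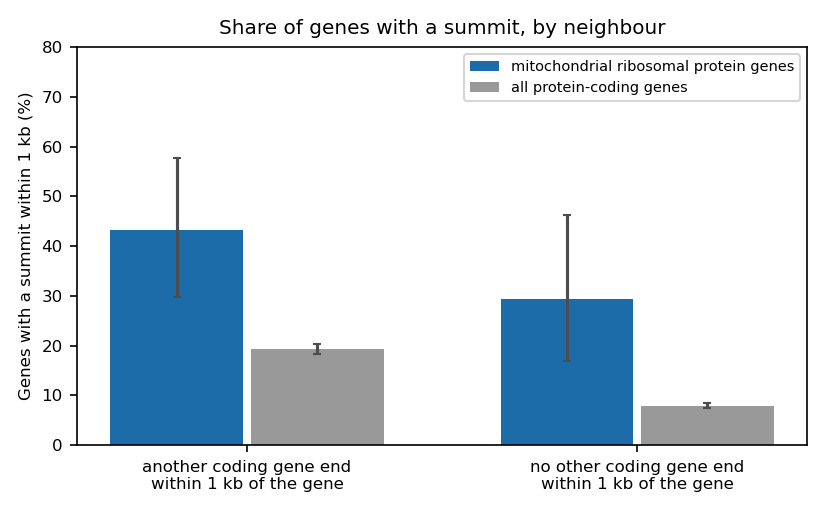
Bars give the percentage of genes with a summit within 1 kb, for genes with and without another coding gene end within 1 kb, with 95% Wilson intervals. The mitochondrial ribosomal protein genes reach 43.2% and 29.4%, and all protein-coding genes 19.3% and 7.93%.

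For 49 of the 78 genes no summit lay within 1 kb of an end. In 6 of them the nearest summit was within 10 kb, namely Mrpl18 (1275 bp), Mrpl4 (1660 bp), Mrpl12 (3246 bp), Mrpl49 (3787 bp), Mrpl20 (3793 bp) and Mrps17 (6296 bp). The summit at Mrpl18 was inside the gene and 421 bp before an annotated start, and it was 183 bp from an end of Tcp1, a chaperonin gene with a divergent start. The summit at Mrpl4 was inside the gene as well. The nearest summit was between 10 and 100 kb away for 21 genes. These were Mrpl10, Mrpl24, Mrpl42, Mrpl30, Mrpl55, Mrpl11, Mrpl54, Mrpl45, Mrpl38, Mrpl37, Mrpl57, Mrpl52, Mrpl33 and Mrpl34 of the Mrpl series, and Mrps14, Mrps23, Mrps18b, Mrps16, Mrps24, Mrps25 and Mrps18a of the Mrps series.

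For the remaining 22 genes (28.2%, against 55.5% of all coding genes) the nearest summit was over 100 kb away. They were Mrpl14, Mrpl22, Mrpl23, Mrpl16, Mrpl43, Mrpl27, Mrpl32, Mrpl9, Mrpl19, Mrpl36, Mrpl50, Mrpl15 and Mrpl17, and Mrps26, Mrps6, Mrps15, Mrps10, Mrps34, Mrps2, Mrps9, Mrps28 and Mrps30. Mrpl17 was the farthest, at 3123 kb. A gene without a summit is one where none was called, and a weaker signal at these genes was not detectable with the deposited list.

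The promoters were searched for motifs in the 300 bases from 250 before to 50 after the start, which the RefSeq table held for 69 of the 78 genes and for 17492 of the 21887 coding genes. As this is 79.9% of them, under the 80% required, shares over all promoters describe the promoters in the table and not all coding genes. For the coding genes with a summit the table held 1900 of 2354. The 5-letter motif TAATT, which the study names for the Dlx family, was present on either strand in 4 of 27 promoters of genes with a summit (14.8%, 5.92 to 32.5%), namely Mrpl1, Mrpl28, Mrpl35 and Mrps36. It was present in 10 of 42 promoters of genes without one (23.8%, 13.5 to 38.5%) and in 4210 of 17492 coding promoters (24.1%). Among the 1900 promoters of all coding genes with a summit it was present in 287 (15.1%), a share near that of the mitochondrial ribosomal protein genes with one. Some summits lay outside this window, such as that of Mrpl40 at 462 bp before the start, and the sequence of whole intervals was not used here.

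Other motifs are typical of housekeeping promoters. The Ets motif CCGGAAG was in 11 of the 27 promoters with a summit (40.7%, 24.5 to 59.3%) and in 13 of the 42 without (31.0%, 19.1 to 46.0%), against 11.9% of all coding promoters and 24.6% of those of coding genes with a summit. The Yy1 motif AAGATGGC was in 5 of 27 (18.5%) and 7 of 42 (16.7%), against 3.21% and 5.58%. The GC box of Sp factors, GGGCGG, was in 14 of 27 (51.9%) and 20 of 42 (47.6%), against 46.3% of all coding promoters and 68.4% (66.3 to 70.5%) of those of coding genes with a summit. CCAAT was in 9 of 27 (33.3%) and 18 of 42 (42.9%), against 39.2% and 38.8% in the same order. The E-box CACGTG was in 2 of 27 (7.41%) and 3 of 42 (7.14%), against 7.91% and 10.8%. For nuclear respiratory factor 1, a regulator of nuclear genes for mitochondrial proteins, the motif GCATGCGC was in 1 of 27 (3.70%) and 7 of 42 (16.7%), against 3.61% and 6.21%. The longer palindromic form of this motif, which contains it, was in 1 of 27 and 2 of 42, against 1.33% and 2.47%. The Wilson intervals of promoters with and without a summit overlapped for each motif, and a match is a description of the letters and not of binding.

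**Figure D5:**
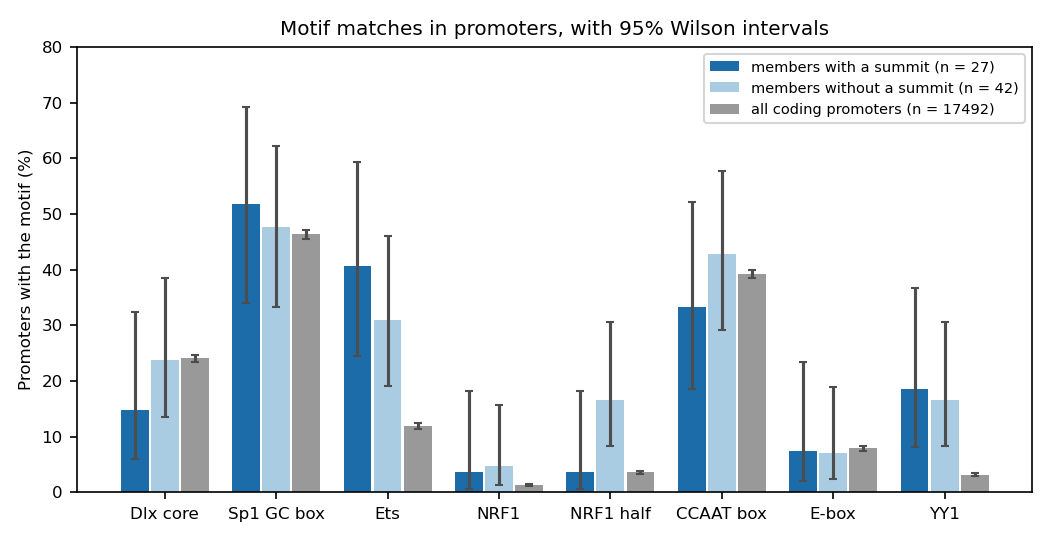
Bars give the percentage of promoters (250 bases before to 50 after the start) with a match on either strand, with 95% Wilson intervals, for genes with a summit, genes without one and all coding promoters. TAATT, labelled Dlx core, is at 14.8%, 23.8% and 24.1%, and the Ets motif at 40.7%, 31.0% and 11.9%.

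The GC content of the promoters had a median of 60.7% for the 27 genes with a summit and 58.2% for the 42 without, and the number of CpG dinucleotides a median of 21 and 22. Among coding genes with a summit in general, the 1900 promoters in the table had medians of 62.3% and 24. All 17492 promoters in the table, with or without a summit, had medians of 56.3% and 13. As these cover 79.9% of coding genes, a comparison with all coding genes was void.

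The other genes of mitochondrial translation were described by lists of known members, to be read against the 10.8% of all coding genes with a summit. Of the 5 mitochondrial ribosomal proteins with other symbols, Dap3 (height 17) and Aurkaip1 (14) had a summit and Ptcd3, Chchd1 and Gadd45gip1 did not. Of 14 translation factors and messenger RNA regulators, 5 (35.7%) had one. The tallest was at Lrpprc (37), which stabilizes mitochondrial messenger RNAs, followed by the elongation factor gene Tsfm (23), Mtfmt (16), Mrrf (15) and Guf1 (14). Among 17 mitochondrial aminoacyl-tRNA synthetase genes 7 (41.2%) had a summit, led by Fars2 (30), Yars2 (24), Mars2 (16), Sars2 (14, the interval of Mrps12) and Hars2 (14). Of 22 assembly factor genes 3 (13.6%, 4.75 to 33.3%) had one, at Mtg1 (20), Malsu1 (14) and Gtpbp10 (12), a share near that of all coding genes. Of 4 transcription genes, 1 had one, Tefm (23), while Polrmt, Tfam and Tfb2m had none within 1 kb.

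Among the most similar gene families, 41 of 76 cytosolic ribosomal protein genes (53.9%) and 20 of 76 nuclear respiratory chain subunit genes (26.3%) had a summit, beside the 10.8% of all coding genes. Their summit heights reached 30 and 28, against 47 at the mitochondrial ribosomal protein genes, with medians of 16, 17 and 19. Differences between these families were not tested. None of the intervals at any of the lists above was called in the input.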

How the data were processed

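The Myc-Tag ChIP and the input have 1 library each. Per the methods, sequencing on an Illumina GA II and its analysis were done by Active Motif with MACS peak calls, and the submitters' processing notes list BWA and mm9. The authors deposited intervals and summits, each summit with a score (its height, a whole number of unstated normalization). The read extension, the threshold and the MACS version are not given in the sources used here. The browser view in the supplement names mm10, and 58.4% of summits lay within 1 kb of a GRCm38.p6 coding gene end, so mm10 was used. No read totals were analysed, so that the depth and thus the precision of a height are unknown.

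Each summit was joined to its interval. Interval starts are counted from 1, and summits are as deposited. Genes came from RefSeq (GRCm38.p6), without 6 pseudogenes of the family. Starts, strands and sequences came from its promoter table, with 1 promoter per gene for motifs, the outermost. The members and lists were chosen with earlier results of these data known. All genes with a summit are named, and the 10 tallest are given in full. For printed sequences, the 3 tallest of each kind with 100 free bases and those with TAATT were taken. The minimum of 100 bases, the requirement that the summit lie at the start, and the Mrps11 gap were chosen after the data were seen. Roles follow textbook knowledge. No test between conditions is possible with 1 library per group. Scripts ran in Python 3.11.15 with pandas 2.3.3, numpy 2.4.6, matplotlib 3.10.9 and scipy 1.17.1, and Wilson intervals cover counting error only. The counting was tested on simulated data with 20000 genes, and 102 of 102 true calls were recovered with 0 false. Alternatives were other distances, height thresholds, starts alone, and leaving out input calls or chromosome 15.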

Additional observations from a re-analysis of the deposited data

How the results depend on the processing

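With 1 library per group, no replicate was left out. No paired analysis was possible because the 2 libraries are single. Of 47 recomputed values, 38 stayed inside the 95% interval of the value given above and 9 moved beyond it. At heights of at least 19 the share fell to 19.2% of the mitochondrial ribosomal protein genes and to 14.3% of the Mrpl genes, as fewer intervals follow from the threshold. Over all coding genes the share moved to 9.04% within 500 bp, 12.3% within 2 kb, 14.7% within 5 kb, 11.5% with any base of the interval, 5.68% at heights of at least 16, 3.08% at heights of at least 19 and, among the 17492 genes with a promoter in the table, 11.4% with transcription starts alone. Over the members it was between 28.2% and 43.6% under the other alternatives. Within 500 bp Mrpl1, Mrpl48, Mrps21 and Mrps31 were lost. Within 2 kb Mrpl18 and Mrpl4 were gained, and within 5 kb Mrpl12, Mrpl20 and Mrpl49 as well. With starts alone, Mrpl18 was gained and Mrps21 lost. Leaving out intervals called in the input could change no call among the members, as none of those intervals lay at their ends. The member values under this alternative are counted among the 38 although they could not move.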

Other observations

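None of the 6 annotated pseudogenes of the family (Mrpl23-ps1, Mrpl48-ps, Mrps36-ps1, Mrps36-ps2, Mrps36-ps3 and Mrpl27-ps) had a Myc-Tag summit within 1 kb of an end. The share over all pseudogenes was not taken, and with only 6 their lack of a summit was not read as a difference from the coding genes. By chromosome, 5 of the 7 mitochondrial ribosomal protein genes on chromosome 6 and 4 of the 6 on chromosome 7 had a summit, while 2 of the 11 on chromosome 11, 0 of the 4 on chromosome 4 and 0 of the 3 on chromosome 14 did. Over all coding genes these chromosomes had 10.4%, 7.19%, 10.8%, 11.4% and 10.2%.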
